A study of Mus musculus with 8 samples.

Results

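Cadherins are cell surface proteins that hold cells together in the presence of calcium, and protocadherins are their relatives with other cytoplasmic tails. The members described here are all genes with a symbol of Cdh followed by a number, or with a symbol that starts with Pcdh. There were 93 of them among 23503 genes. RNA sequencing measured them in mesenchymal stem cells from mouse bone marrow, which can form bone, cartilage and fat. All cells lacked p53, were below passage 20, and came from single-cell clones numbered 2, 4, 8 and 12. Each clone was given either a retrovirus with luciferase (Luc), the control, or a retrovirus with cFos cDNA, which encodes a subunit of the AP-1 transcription factor. Every clone gave 1 library per virus, 4 Luc and 4 cFos in all, and Luc 8, for example, is clone 8 with Luc. The sources used here do not give the promoter that drives the cDNA or the time from transduction to harvest. The spread in each arm is that between clonal lines, since no clone and virus has a second library.

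Classical cadherins bind their own kind on the neighbouring cell through their outer domains, and their tails hold p120-catenin and beta-catenin, which tie them to actin through alpha-catenin. Mesenchymal cells typically carry N-cadherin (Cdh2) and cadherin-11 (Cdh11), and epithelial cells E-cadherin (Cdh1). The clustered protocadherins lie in arrays named alpha, beta and gamma, of which alpha and gamma are made of alternative first exons. In the alpha and gamma arrays each first exon has its own promoter and is spliced to constant exons that all isoforms of the array share. In neurons each cell uses a few of these promoters, which gives it a surface identity. Because the constant exons are shared, reads from them are split between isoforms by a model, and the values of single alpha and gamma isoforms are estimates of that split.

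Levels are given in FPKM, fragment numbers scaled by transcript length and library size, so they can be set side by side between genes. The libraries held 6.93 to 9.14 gigabases aligned to annotated transcripts, and 1 FPKM stood for a mean depth of 7.30 to 9.56 per base. Fos was at 41.1 to 302 FPKM in Luc and 505 to 1019 in cFos, higher in cFos in each clone. Of the stromal markers, Col1a1, a chain of type I collagen, was at 831 FPKM or more in every library, and the 8 markers summed to 4488 to 9936 FPKM in Luc and 3132 to 4898 in cFos. The lower sum in cFos came from the chemokine Cxcl12, with a mean of 3364 FPKM in Luc and 359 in cFos, while each of the other 7 had a higher mean in cFos, as Pdgfrb did, at 86.8 and 147. The 8 endothelial and 6 skeletal muscle markers stayed under 1 FPKM in all 8 libraries, and of 9 epithelial markers 7 did. The exceptions were Krt18, at 2.38 FPKM at most, and Krt19, at 1.39 to 28.7 in Luc and 35.8 to 356 in cFos. The summed level of 6 neuronal markers was 0.289 to 7.99 in Luc and 6.11 to 20.0 in cFos, with Snap25, Nefl and Syt1 under 1 FPKM throughout. Stmn2 was at 0.111 FPKM or less in Luc and 3.69, 1.92, 0.0147 and 8.95 in cFos clones 2, 4, 8 and 12, and Map2 had means of 0.182 and 1.97, both higher in cFos in all 4 clones. Tubb3 went both ways. In the same order of clones it was at 7.50, 1.12, 0.242 and 7.22 in Luc and 6.88, 4.54, 5.72 and 6.86 in cFos. Glial markers summed to 1.27 to 16.7 and 0.657 to 10.98 FPKM, with Sox10 listed at 0, and blood markers to 0.918 to 2.70 and 1.37 to 2.32. The part of these markers in the results below was not tested, and in bulk RNA fewer cells of a type and less RNA per cell cannot be told apart.

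The libraries of clone 2 stood apart from each other. They shared 1 gamma A or B isoform at 1 FPKM or more, of 5 in Luc 2 and 7 in cFos 2, while the Luc and cFos libraries of each other clone shared at least 4. Over all tested genes, the deviations from the arm mean correlated by 0.174 between Luc 2 and cFos 2, across genes, against 0.349 to 0.593 in the other clones. Luc and cFos libraries of different clones gave -0.381 to -0.0086. Because deviations are taken from each arm's own mean, values between different clones are pushed negative by construction, so their sign is no reference. Luc 2 gave -0.139, -0.0086 and -0.0297 with cFos 4, 8 and 12, so its highest value was that with cFos 2. At 1 FPKM or more, cFos 2 shared 5 gamma A or B isoforms with each library of clones 4 and 8. Both carry the label of clone 2, and whether they are the same clonal line was not tested. Ratios within clone 2, the fit blocked by clone and exchanges inside clones all take that label as given. Calls are therefore also given without clone 2.

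Of the 93 members, 40 reached 1 FPKM in at least 1 library, 53 stayed below it in all 8, and 5 (Cdh5, Cdh8, Cdh9, Pcdh8 and Pcdhb1) were listed at 0 throughout. Between 18 and 27 members per library reached 1 FPKM. The 6 that did so in all 8 libraries were Cdh2, Cdh13, Pcdh18, Pcdh19, Pcdhb22 and Pcdhgc3. The most abundant was Pcdhgc3, a gamma protocadherin of the C type, followed by Cdh13 and Cdh11. Cdh1, E-cadherin, was at 0.326 FPKM at most, and Cdh5, the cadherin of endothelium, was listed at 0. Among those under 1 FPKM were also 13 of 14 alpha protocadherins, 11 of 22 beta and 6 of 22 gamma, and the muscle cadherin Cdh15.

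**Figure D1:**
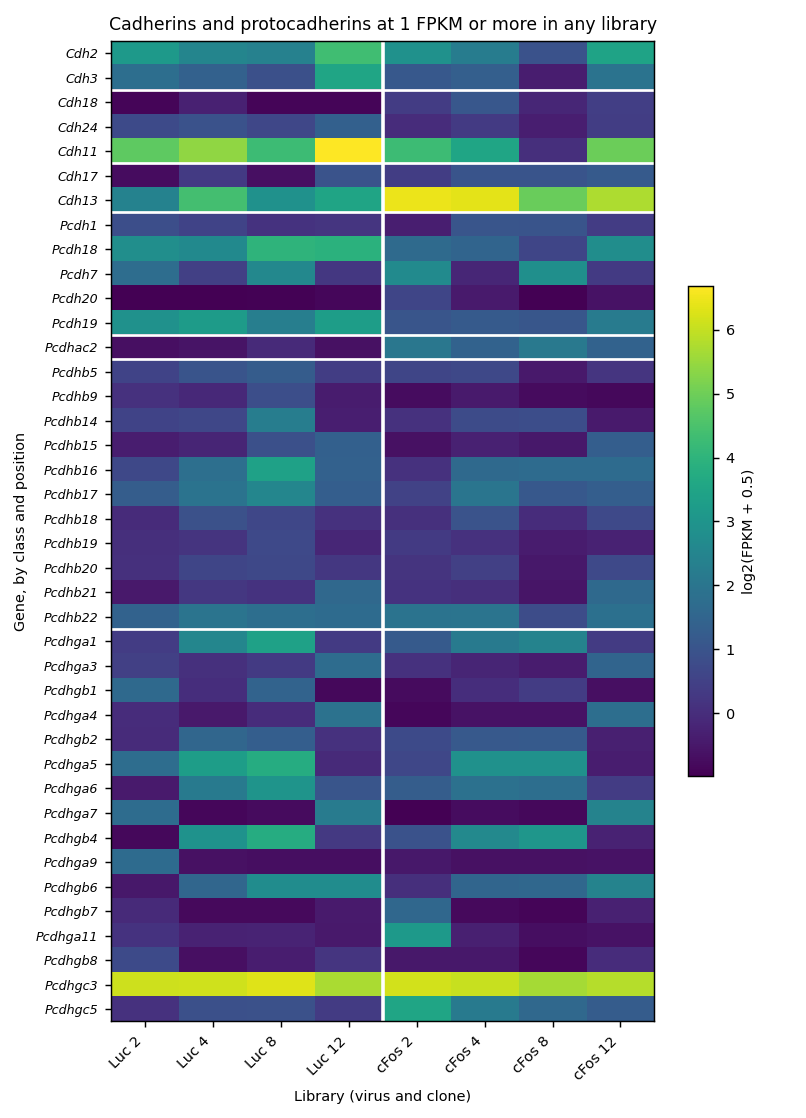
Level of the 40 members that reached 1 FPKM in at least 1 library (rows, by class and position) in the 4 Luc and 4 cFos libraries (columns, by clone), as log2(FPKM + 0.5). Pcdhgc3 is high in all 8 libraries, Cdh13 is brighter in the cFos columns, and the gamma A and B isoforms of clone 12 are other ones than those of clones 4 and 8.

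Whether cFos changed these genes was tested with limma on log2(FPKM + 0.5) over 11162 genes that reached 1 FPKM in at least 4 libraries, 24 of them members. Fold changes refer to that scale and understate what low genes do, and a gene passed at an adjusted p under 0.05. Cdh13 and Pcdhac2 rose in cFos, Pcdh19 fell, and 21 members did not pass. Over all tested genes 2.92% rose and 2.62% fell, 5.55% in either direction. With 24 members a single gene weighs heavily in such a share, and nothing particular to the family is read from these counts. With the clone as a block, Cdh13 and Pcdhac2 rose and Pcdh19 and Cdh24 fell, where 4.51% of all tested genes rose and 4.28% fell, 8.79% in either direction. The median log2 difference was -0.18 over the 24 members and -0.06 over all tested genes. The members' median rested on single libraries, at -0.66 without Luc 2 and 0.012 without Luc 8, against -0.05 and -0.06 over all genes. Without clone 2, Pcdhac2 rose and no member fell.

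**Figure D2:**
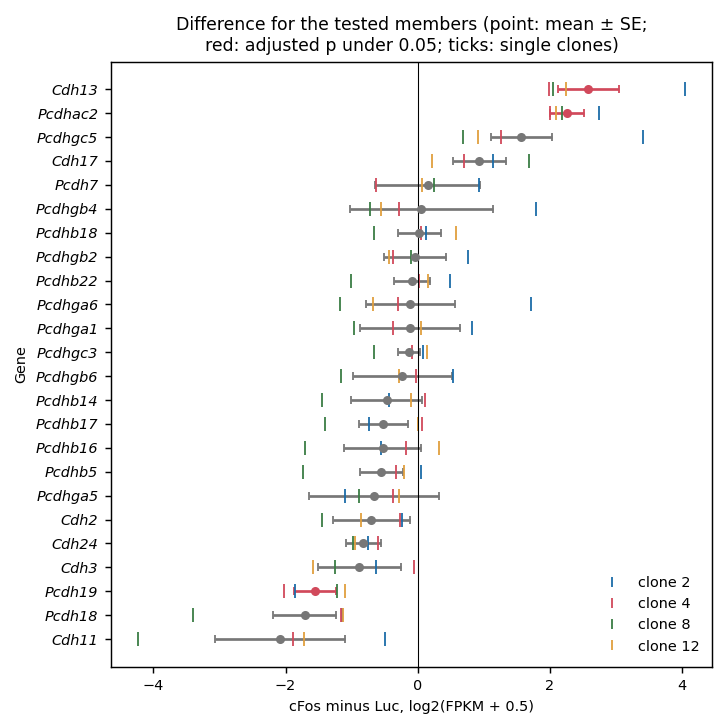
Difference between cFos and Luc in log2(FPKM + 0.5) for the 24 tested members, with the limma mean and SE (points and bars, red where the adjusted p is under 0.05) and each clone's own difference (ticks). Cdh13 and Pcdhac2 lie above 2 and Pcdh19 at -1.55, and the ticks of many gamma isoforms fall on both sides of 0.

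Cdh13 encodes T-cadherin, which is held in the membrane by a lipid anchor and lacks the tail that binds catenins (chromosome 8, 120807655 to 121847348, build mm9). Its FPKM values, always in the order of clones 2, 4, 8 and 12, were 4.85, 20.6, 6.99 and 10.8 with Luc and 87.6, 82.7, 30.3 and 53.2 with cFos. The lowest cFos library, cFos 8, was above the highest Luc library, Luc 4. The cFos level was 18.1-fold that of Luc in clone 2 and 4.02-fold to 4.92-fold in the others. The mean rose from 10.8 ± 6.96 to 63.4 ± 26.8 FPKM (SD, n = 4). On the log2 scale this is 2.58 (SE 0.46), with a limma adjusted p of 0.0150. Permuting the libraries gave an exact two-sided p of 0.0286, and exchanging arms inside each clone gave 0.125, in both cases the smallest value the design allows. The adjusted p was 0.0560 without cFos 2 and 0.114 without clone 2, where the log2 fold change was 2.09. Cdh13 was the most abundant Cdh gene in each cFos library, while Cdh11 led in each Luc library.

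Cdh17, the cadherin of liver and intestine, was low (chromosome 4, 11685304 to 11745052). It was at 0.102, 0.744, 0.133 and 1.46 FPKM in Luc and 0.824, 1.52, 1.53 and 1.77 in cFos, higher in cFos in each clone, with arms that overlapped (log2 difference 0.93, adjusted p = 0.238). Cdh18, a neuronal type II cadherin, was below the level tested. It was at 0.0406, 0.324, 0.0402 and 0.0399 FPKM in Luc and 0.798, 1.62, 0.396 and 0.863 in cFos, so each cFos library was above each Luc library. Over the 12208 genes that reached 1 FPKM in at least 1 library, its log2 difference was 1.17 (SE 0.33, adjusted p = 0.0805). Cdh18 entered that set through cFos 4 alone, in the arm where it was high.

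The 4 classical cadherins tested, Cdh2, Cdh3, Cdh11 and Cdh24, were each lower in cFos in all 4 clones, and none passed the test. Of all tested genes 20.9% were lower in all 4 clones. Cdh24 entered through its Luc libraries alone, so its order was fixed by the filter, and Cdh3 differed little in clone 4, at 2.15 and 2.04 FPKM. Cdh11, the cadherin of osteoblasts and mesenchyme (chromosome 8, 105156895 to 105309011), was at 26.9, 41.9, 18.9 and 103 FPKM in Luc and 18.9, 10.96, 0.539 and 30.8 in cFos. Luc was 35.1-fold cFos in clone 8 and 1.42-fold to 3.82-fold in the others. The arms overlapped, and the log2 difference of -2.08 (SE 0.99) had an adjusted p of 0.279. Without cFos 8 it was -1.03. The level in cFos 8 was below 1 FPKM, the single library of 8 in which Cdh11 did not reach it.

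Cdh2, N-cadherin (chromosome 18, 16747386 to 16967558), was at 8.30, 5.16, 4.72 and 19.7 FPKM in Luc and 6.94, 4.19, 1.42 and 10.6 in cFos. The arms overlapped widely, and cFos 12 was above 3 of the 4 Luc libraries (log2 difference -0.70, SE 0.58, adjusted p = 0.557). Without cFos 8 the difference was -0.22 and without Luc 12 it was -0.29, and it was -1.07 without cFos 12. Cdh3, P-cadherin (chromosome 8, 109034752 to 109080811), was at 2.92, 2.15, 1.35 and 11.1 FPKM in Luc and 1.70, 2.04, 0.276 and 3.34 in cFos (log2 difference -0.88, SE 0.63, adjusted p = 0.483). It was -0.42 without cFos 8 and -0.34 without Luc 12. For Cdh2, Cdh3 and Cdh11 alike, clone 12 was highest and clone 8 lowest in both arms.

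Cdh24, a type II cadherin (chromosome 14, 55250829 to 55260201), was at 1.16, 1.42, 1.05 and 2.07 FPKM in Luc and 0.484, 0.756, 0.289 and 0.834 in cFos. The arms did not overlap (log2 difference -0.82, SE 0.26, adjusted p = 0.116). With the clone as a block its adjusted p was 0.0473. Cdh24 reached the level tested through its Luc libraries alone.

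**Figure D3:**
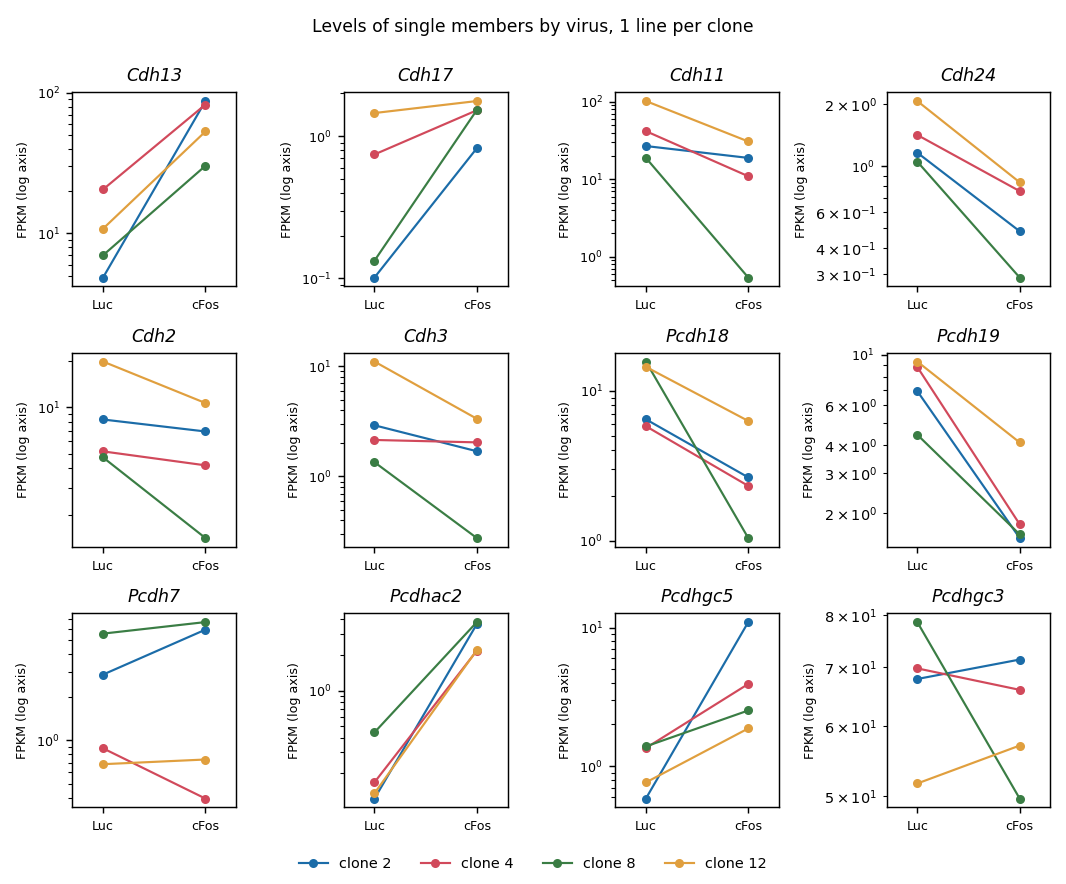
FPKM (log axis, own scale per panel) of 12 members in Luc and cFos, with 1 line per clone. Cdh13, Cdh17, Pcdhac2 and Pcdhgc5 are higher in cFos in all 4 clones, Cdh11, Cdh24, Cdh2, Cdh3, Pcdh18 and Pcdh19 are lower in all 4, and Pcdh7 and Pcdhgc3 go both ways.

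Of the protocadherins outside the clusters, Pcdh19 and Pcdh18 were lower in cFos in each clone. Both are delta protocadherins best known from the developing brain. Pcdh19, an X-linked gene mutated in a form of epilepsy (chromosome X, 130117400 to 130223532), was at 6.91, 8.83, 4.44 and 9.33 FPKM in Luc and 1.55, 1.79, 1.61 and 4.10 in cFos. The highest cFos library, cFos 12, was just below the lowest Luc library, Luc 8. The mean fell from 7.38 ± 2.22 to 2.26 ± 1.23 FPKM (SD, n = 4), or -1.55 on the log2 scale (SE 0.31), with a limma adjusted p of 0.0242. The exact permutation p was again 0.0286 over libraries and 0.125 inside clones. Pcdh19 no longer passed when Luc 2, Luc 4, Luc 12 or any cFos library but cFos 12 was left out (adjusted p up to 0.0851), without clone 2 (0.174), or with no filter on low genes (0.0639). Its log2 fold change was -1.43 or below in all of these.

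Pcdh18 (chromosome 3, 49547218 to 49561238) was at 6.46, 5.81, 15.7 and 14.5 FPKM in Luc and 2.64, 2.32, 1.04 and 6.29 in cFos. Luc was 2.30-fold to 2.50-fold cFos in clones 2, 4 and 12 and 15.1-fold in clone 8. The arms overlapped through cFos 12, which was above Luc 4 (log2 difference -1.71, SE 0.47, adjusted p = 0.0763). Pcdh18 passed without cFos 12 (0.0331).

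Because cFos acts through AP-1 sites, promoters are shown for members with an entry in the RefSeq table of build GRCm38.p6. The promoters shown are those of the 3 tested members of this kind that were lower in cFos in each clone. They are the 250 bases before the annotated start, 5′ to 3′, with CG dinucleotides in capitals: chr3:49757317-49757566 (minus strand) for Pcdh18, chrX:133688994-133689243 (minus strand) for Pcdh19 and chr14:54641365-54641614 (minus strand) for Cdh24.
Pcdh18: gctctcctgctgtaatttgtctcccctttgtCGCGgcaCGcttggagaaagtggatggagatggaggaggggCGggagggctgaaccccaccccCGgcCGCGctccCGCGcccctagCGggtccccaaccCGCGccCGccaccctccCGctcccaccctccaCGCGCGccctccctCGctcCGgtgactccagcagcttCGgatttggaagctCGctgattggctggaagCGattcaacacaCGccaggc
Pcdh19: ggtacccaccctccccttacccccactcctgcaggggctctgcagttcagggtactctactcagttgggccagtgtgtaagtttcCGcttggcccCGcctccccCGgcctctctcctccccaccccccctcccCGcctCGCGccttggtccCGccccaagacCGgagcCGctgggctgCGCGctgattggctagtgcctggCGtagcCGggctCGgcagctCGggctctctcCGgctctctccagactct
Cdh24: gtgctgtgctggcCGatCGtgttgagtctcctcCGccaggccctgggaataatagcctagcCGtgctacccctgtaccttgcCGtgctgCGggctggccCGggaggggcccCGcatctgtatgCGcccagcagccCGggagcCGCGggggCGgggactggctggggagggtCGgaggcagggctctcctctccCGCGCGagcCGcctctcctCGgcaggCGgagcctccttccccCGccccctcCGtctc
They held 23, 16 and 22 CG dinucleotides and had 68.0%, 69.2% and 72.8% G or C, against medians of 6 and 52.4% over 32851 promoters. Cdh26, under 1 FPKM throughout and not tested, was also lower in cFos in each clone and has an entry. Its window held 0 CG dinucleotides and had 42.8% G or C. Neither the AP-1 motif TGANTCA nor the related motif TGACGTCA, which both read the same on either strand, was found in these windows. Of all promoters, 6.75% hold the first and 1.55% the second. The table has entries for 22 members, none of them with either motif in this window. Cdh13 and Pcdhac2, which rose in cFos, have no entry, and neither do Cdh2, Cdh3 and Cdh11. At the shares over all promoters, few of 22 windows would hold a motif, so its absence from them says little. Binding of AP-1 was not tested.

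Pcdh7, another delta protocadherin (chromosome 5, 58109260 to 58523479), differed between clones more than between arms. It was at 2.87, 0.880, 5.54 and 0.683 FPKM in Luc and 5.90, 0.394, 6.66 and 0.736 in cFos, above 2 in both libraries of clones 2 and 8 and below 1 in those of clones 4 and 12. Pcdh7 thus entered the tested set through clones 2 and 8 alone, and it did not pass the test of clone differences given below. Pcdh1 (0.289 to 1.55 FPKM) reached 1 FPKM in 3 libraries. Pcdh20 reached it in cFos 2 alone, at 1.04.

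The clustered protocadherins lie together on chromosome 18. In the alpha cluster every isoform stayed at or under 0.347 FPKM but Pcdhac2, a C-type isoform at the end of the array (37303623 to 37347311, mm9). Pcdhac2 was at 0.122, 0.168, 0.443 and 0.135 FPKM in Luc and 3.65, 2.18, 3.80 and 2.20 in cFos. All 4 cFos libraries were above all 4 Luc libraries, and the 95% limits in the authors' tables, which ended at 0.552 at most in Luc, started at 1.96 or more in cFos. The ratio of cFos to Luc was between 8.57 (clone 8) and 29.9 (clone 2). The mean rose from 0.217 ± 0.152 to 2.96 ± 0.888 FPKM (SD, n = 4), or 2.26 on the log2 scale (SE 0.26), with a limma adjusted p of 0.00247. The exact permutation p was 0.0286 over libraries and 0.125 inside clones. Pcdhac2 reached the level tested through its cFos libraries alone, and it also passed with no filter (adjusted p = 0.00730). The call held without each single library (adjusted p up to 0.0142) and without clone 2 (0.0365).

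The other 13 alpha isoforms summed to 0.111 to 0.510 FPKM in Luc and 0.0210 to 0.331 in cFos. The alpha array as a whole, which is less open to the split of shared reads, summed to 0.234 to 0.953 in Luc and 2.23 to 3.82 in cFos.

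The C-type isoform Pcdhgc5 of the gamma cluster (37979200 to 38001526) was also higher in cFos in each clone. It was at 0.583, 1.35, 1.39 and 0.763 FPKM in Luc and 10.98, 3.92, 2.52 and 1.87 in cFos, and the arms did not overlap. The ratio was 18.8 in clone 2 and 1.82 to 2.90 in the other clones, and the log2 difference of 1.56 (SE 0.46) had an adjusted p of 0.0906, and was 0.95 without clone 2. With Pcdhac2 and Cdh13 it made 3 tested members whose cFos libraries all lay above the Luc libraries, where 5.86% of all tested genes did so. Pcdh19 and Cdh24 were the 2 with the opposite order, where 7.8% of all tested genes had it. In all 4 clones 4 members were higher and 7 were lower in cFos, against 15.3% and 20.9% of all tested genes. Pcdhac2 and Cdh24 passed the filter through a single arm, so their place in these counts was fixed by the filter.

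Pcdhgc3 (37966064 to 38001526) was the most abundant member in 5 libraries and did not separate the arms. It was at 67.8, 69.7, 78.6 and 51.7 FPKM in Luc and 71.3, 65.9, 49.7 and 57.0 in cFos, higher in cFos in clones 2 and 12 and lower in clones 4 and 8 (log2 difference -0.13, SE 0.17, adjusted p = 0.715). It held 57.0% to 79.1% of the summed gamma FPKM. That sum was 101 ± 27.5 FPKM in Luc and 90.1 ± 12.1 in cFos (SD, n = 4), with arms that overlapped. Pcdhgc4, the remaining C-type isoform, stayed under 1 FPKM.

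The set of gamma A and B isoforms at 1 FPKM or more, of 19 in the array, was shared by some libraries and not by others. Clones 4 and 8 had the same 6 isoforms at 1 FPKM or more in all 4 of their libraries, Pcdhga1, Pcdhgb2, Pcdhga5, Pcdhga6, Pcdhgb4 and Pcdhgb6, with Pcdhgb1 in addition in Luc 8. Clone 12 had Pcdhga3, Pcdhga4, Pcdhga7 and Pcdhgb6 in both libraries and Pcdhga6 in Luc 12. Luc 2 had Pcdhgb1, Pcdhga5, Pcdhga7, Pcdhga9 and Pcdhgb8, and cFos 2 had Pcdhga1, Pcdhgb2, Pcdhga5, Pcdhga6, Pcdhgb4, Pcdhgb7 and Pcdhga11. Each library thus had 4 to 7 of the 19.

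**Figure D4:**
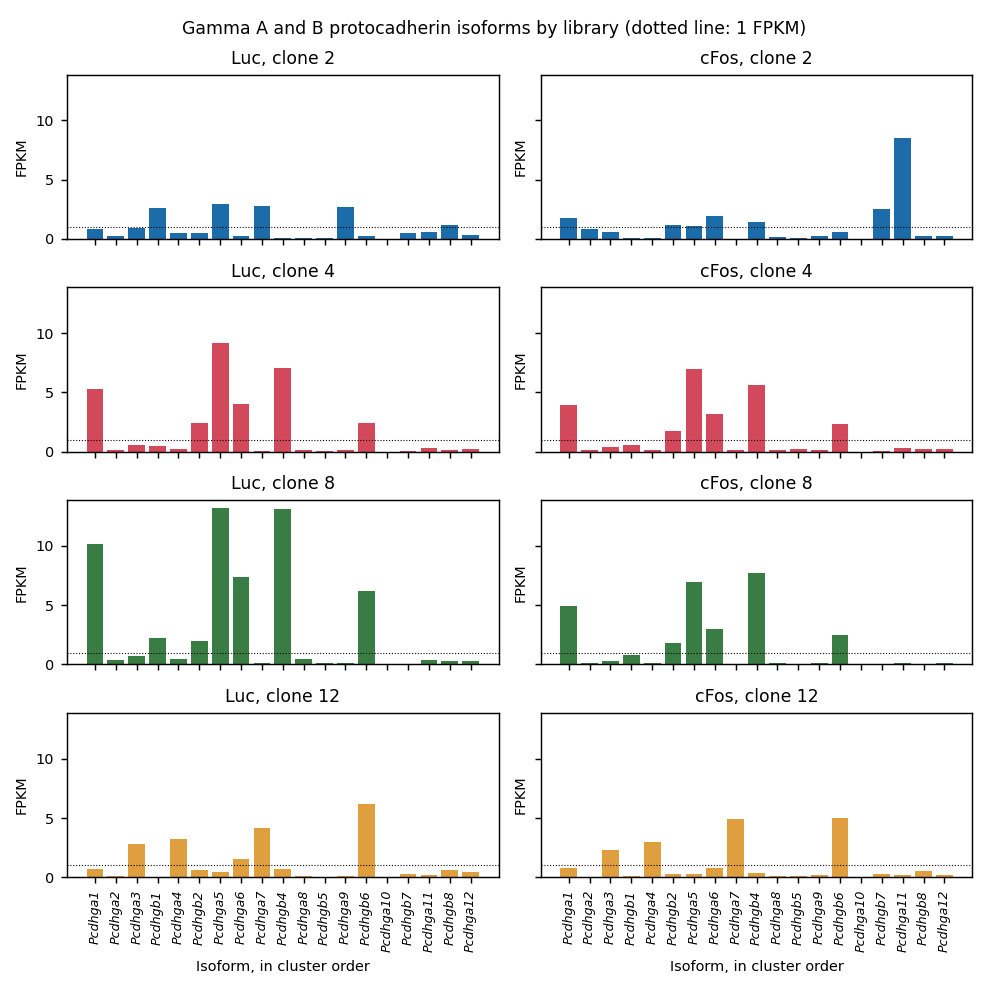
FPKM of the 19 gamma A and B protocadherin isoforms (bars, in cluster order) in each library, Luc on the left and cFos on the right, 1 row per clone. Clones 4 and 8 show the same 6 bars above 1 FPKM in both arms, clone 12 shows another set, and the libraries of clone 2 differ from each other.

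Single isoforms spanned a wide range over the libraries. Pcdhga5 was at 2.90, 9.21, 13.2 and 0.448 FPKM in Luc and 1.08, 6.96, 6.93 and 0.277 in cFos. Pcdhgb4 was at 0.0605, 7.03, 13.1 and 0.727 in Luc and 1.44, 5.66, 7.73 and 0.337 in cFos. Both were highest in clones 4 and 8, in either arm. Pcdhga1 had the same order, at 0.798, 5.28, 10.1 and 0.737 in Luc and 1.78, 3.97, 4.95 and 0.783 in cFos. Pcdhgb6 differed in that clone 12 was also high, at 0.215, 2.40, 6.18 and 6.19 in Luc and 0.535, 2.35, 2.50 and 4.98 in cFos. Pcdhga7 was at 2.80, 0.0583, 0.0902 and 4.15 in Luc and 0.00935, 0.105, 0.0596 and 4.96 in cFos, so in clone 2 it was seen with Luc and not with cFos. Pcdhga11 was the reverse, at 0.607 FPKM in Luc 2 and 8.49 in cFos 2 (95% limits 7.87 to 9.10 in the authors' table), with 0.359 or less in the other 6 libraries. Pcdhga3 and Pcdhga4 were high in clone 12 in both arms, at 2.82 and 3.22 FPKM in Luc 12 and 2.32 and 2.97 in cFos 12, and at 0.884 or less in the other 6 libraries. Pcdhga9 reached 2.72 FPKM in Luc 2 (2.44 to 2.999) and 0.217 or less elsewhere.

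Across the 19 isoforms, log2 levels correlated by 0.996, 0.984 and 0.975 (Pearson) between the arms of clones 4, 8 and 12, and by -0.12 between those of clone 2. Between the libraries of clone 4 and those of clone 8 the values were 0.971 to 0.991, and between cFos 2 and these 4 libraries 0.352 to 0.430. These are descriptions over 19 isoforms of 1 array that share constant exons. Over all tested genes Luc 2 and cFos 2 correlated by 0.885, close to Luc 8 and cFos 8 at 0.889. Luc 2 correlated by 0.8802, 0.8731 and 0.8845 with cFos 4, 8 and 12. The values of cFos 2 with Luc 4, 8 and 12 were 0.9091, 0.8733 and 0.9156. The value of the clone 2 pair lay among those of pairs from different clones, and so did that of the clone 8 pair. In that clone, cFos 8 correlated by 0.8731, 0.9046 and 0.8927 with Luc 2, 4 and 12. Luc 8 correlated by 0.8733, 0.8675 and 0.8734 with cFos 2, 4 and 12. Correlations over all tested genes therefore do not set clone 2 apart from clone 8.

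Differences between clones were tested with limma's F test on the clones, allowing for the arm, with 2 libraries in each. Pcdhga5 passed (adjusted p = 0.0314), with a range of 3.56 on the log2 scale between clone means, and 23 members did not, where 0.484% of all tested genes passed. Pcdh7 and Pcdhgb6 had adjusted p of 0.0648 and 0.0847. Without clone 2, Pcdhga5 and Pcdhgb4 passed (both 0.0337). Pcdhga5 reached 1 FPKM in the 6 libraries of clones 2, 4 and 8, and Pcdhgb4 in cFos 2 and those of clones 4 and 8. Pcdh7 reached it in those of clones 2 and 8 alone. The filter thus let them in through the clones where they were high, while isoforms high in a single clone were not tested, and the counts are a description.

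The beta cluster is made of genes with 1 coding exon each, so its members do not share constant exons. Of 22 members, 11 reached 1 FPKM in some library and 6 were tested, Pcdhb5, Pcdhb14, Pcdhb16, Pcdhb17, Pcdhb18 and Pcdhb22, none of which passed. Pcdhb22 was the steadiest, at 2.20, 3.37, 2.98 and 2.73 FPKM in Luc and 3.29, 3.42, 1.23 and 3.09 in cFos. Pcdhb16 spread more, at 1.10, 2.995, 10.0 and 2.11 in Luc and 0.588, 2.61, 2.72 and 2.77 in cFos. Pcdhb17 was at 1.92, 3.33, 5.29 and 1.95 in Luc and 0.946, 3.495, 1.68 and 1.96 in cFos, and Pcdhb14 at 0.972, 1.08, 4.35 and 0.292 in Luc and 0.587, 1.197, 1.28 and 0.238 in cFos. The arms overlapped in both, with Luc 8 the highest library. Pcdhb5 ranged from 0.219 to 1.89 FPKM and Pcdhb18 from 0.467 to 1.45. All 6 were lower in cFos 8 than in Luc 8. The beta sum was 33.7 FPKM in Luc 8 and 9.05 in cFos 8, the highest and the lowest of the 8 libraries, and 9.79 to 17.9 in the other 6. The untested beta members that reached 1 FPKM were Pcdhb9 and Pcdhb19, in Luc 8 alone, Pcdhb15, Pcdhb20 and Pcdhb21. Pcdhb21 stood out in clone 12, at 2.57 in Luc and 2.60 in cFos, and was at 0.703 or less elsewhere. Of the 16 members that reached 1 FPKM in fewer than 4 libraries, none passed in the test over 12208 genes, of which 2.75% rose and 2.3% fell, 5.05% in either direction.

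The proteins that cadherins work with, and their regulators and proteases, were followed as lists. Of all tested genes 2.92% rose and 2.62% fell. In each list below a single gene weighs heavily, so nothing particular to a list is read from its counts. Of 14 tested catenins and junction adaptors, from 20 listed, 1 fell, none rose and 13 did not pass (median log2 difference 0.05). The fall was that of Ctnnd1, p120-catenin, which binds the tail of classical cadherins and keeps them at the surface. It was at 107, 77.1, 85.1 and 93.7 FPKM in Luc and 49.0, 51.3, 48.6 and 65.3 in cFos, with arms that did not overlap (log2 fold change -0.76, SE 0.15, adjusted p = 0.0213). It no longer passed when Luc 2 or any cFos library but cFos 12 was left out (adjusted p up to 0.0764), nor without clone 2 (0.161). Beta-catenin (Ctnnb1) was at 218 ± 24.5 and 235 ± 31.1 FPKM, and alpha-catenin (Ctnna1) at 96.0 ± 7.41 and 101 ± 4.02 (SD, n = 4). The adjusted p was 0.190 for Ctnnbip1, which binds beta-catenin, and 0.312 for Afdn, afadin, which links nectins to actin.

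Of 6 tested genes on the list of the wider cadherin superfamily, from 28 listed, 2 fell, none rose and 4 did not pass (median -0.16). The list also held Fjx1, which is not itself a cadherin and did not pass. Fat4, a giant atypical cadherin of planar polarity and growth control, was at 13.3, 5.06, 17.4 and 21.1 FPKM in Luc and 1.75, 2.27, 1.32 and 4.54 in cFos (log2 fold change -2.25, SE 0.45, adjusted p = 0.0230). Its relative Fat1 was at 99.5, 104, 74.8 and 88.7 in Luc and 45.5, 56.4, 42.3 and 63.3 in cFos (-0.83, SE 0.17, adjusted p = 0.0239). Both were lower in cFos in each clone, with arms that did not overlap. The Fat4 call ended without Luc 2, cFos 2, cFos 4, Luc 8 or cFos 8 and with no filter on low genes, and that of Fat1 without Luc 2, cFos 2, Luc 4, cFos 4 or cFos 8, with adjusted p up to 0.0857, and both ended without clone 2 (0.177 and 0.189). Clstn1, calsyntenin-1, had an adjusted p of 0.436. The desmosomal Dsg1a, Dsg1b, Dsg1c and Dsg4 were listed at 0 throughout.

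**Figure D5:**
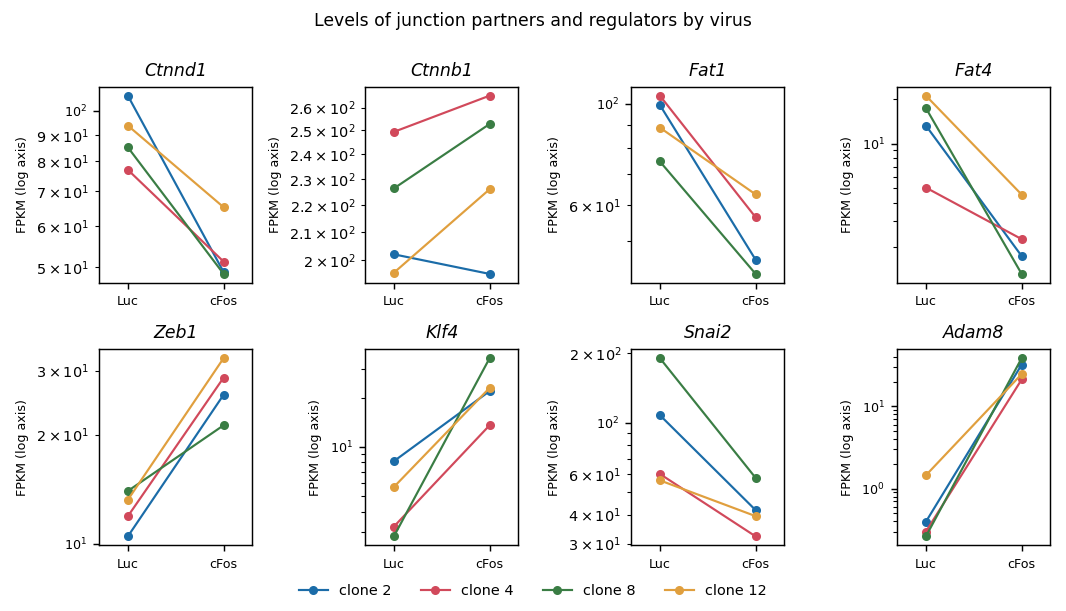
FPKM (log axis, own scale per panel) of 8 partners and regulators of cadherins in Luc and cFos, with 1 line per clone. Ctnnd1, Fat1, Fat4 and Snai2 are lower and Zeb1, Klf4 and Adam8 higher in cFos in all 4 clones, while Ctnnb1 goes both ways.

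Of 10 tested transcription regulators of cadherin genes, from 18 listed, 2 rose, none fell and 8 did not pass (median 0.33). Zeb1, a repressor of E-cadherin, was at 10.5, 11.9, 14.0 and 13.2 FPKM in Luc and 25.8, 28.7, 21.2 and 32.5 in cFos (log2 fold change 1.09, SE 0.16, adjusted p = 0.00585). Klf4, an activator of E-cadherin in epithelia, was at 8.14, 3.23, 2.81 and 5.65 in Luc and 21.9, 13.5, 35.0 and 23.0 in cFos (2.16, SE 0.36, adjusted p = 0.0108). Both were higher in all 4 clones and held their call without each single library, and Zeb1 lost it without clone 2 (0.0607). Snai2, the repressor Slug, was at 108, 60.0, 191 and 56.3 in Luc and 41.8, 32.2, 57.7 and 39.4 in cFos (-1.12, adjusted p = 0.131, and 0.0243 with the clone as a block). Snai1 was at 18.2 ± 13.1 and 26.6 ± 4.68.

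Of 14 tested regulators of the protocadherin clusters, insulator, cohesin and silencing proteins, none passed (median -0.10), either with or without the clone as a block. Ctcf, which binds the protocadherin promoters, was at 25.6, 22.1, 24.9 and 22.7 FPKM in Luc and 16.1, 18.7, 19.6 and 18.1 in cFos, lower in each clone (log2 difference -0.39, SE 0.11, adjusted p = 0.0912). The cohesin subunit Smc1a and the cohesin loader Nipbl had adjusted p of 0.322 and 0.407. Smchd1, which silences the clusters in some tissues, was at 19.6 ± 2.12 and 19.5 ± 2.93.

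Of 13 tested proteases that shed or cut cadherins, from 16 listed, 1 rose, none fell and 12 did not pass (median -0.04). It was Adam8, from 0.394, 0.299, 0.262 and 1.45 FPKM in Luc to 32.2, 21.3, 38.7 and 24.8 in cFos (log2 fold change 4.84, SE 0.32, adjusted p = 1.41e-04). Adam10, the main sheddase of N- and E-cadherin, was at 38.5 ± 3.47 and 48.1 ± 5.69, higher in all 4 clones (0.31, adjusted p = 0.205). Capn2, a calpain, was at 103 ± 20.4 and 154 ± 16.6 (0.59, adjusted p = 0.0666), and passed without Luc 12 (0.0270) and with values scaled between libraries (0.0492 by median of ratios and 0.0445 by upper quartile).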

How the data were processed

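Polyadenylated RNA of 8 cultures was sequenced from Illumina TruSeq libraries, per the labels' protocols. The submitters' processing notes name CASAVA 1.8.2, TopHat, Cufflinks and the build mm9. Per the file headers, the deposited tables hold FPKM with confidence limits for each RefSeq transcript, and its coverage, an unnormalized signal of mean depth per base. No scaling between libraries is recorded. Cufflinks splits reads of shared exons between transcripts by a model, which bears on clustered protocadherins and other near-identical genes. Read counts are not in these tables, and counting intervals were not computed.

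Each table had 30769 entries, named from NCBI RefSeq (30227) or GENCODE M21 (180), with 362 left under their accession. Entries of a symbol were summed into 23503 genes, and 3 with a status other than OK were left out. All 93 members had the status OK, and 24 passed the filter of 1 FPKM in at least 4 libraries. limma 3.58.1 in R 4.3.3 (lmFit, eBayes with trend, two-sided, Benjamini-Hochberg over all tested genes) was run on log2(FPKM + 0.5), with no clone term in the main model. Clone numbers pair the libraries, since per the labels a number is 1 line, which the gamma isoforms leave in doubt for clone 2. Within clones 2, 4, 8 and 12 the deviations from the arm mean had correlations of 0.174, 0.593, 0.349 and 0.437 across genes, and the model was also run blocked by clone. Exact permutation tests used all 70 arrangements and 16 exchanges within clones. The labels do not say that the 2 libraries of a clone were independent cultures. Coordinates are those of the tables, counted from 1. The code was tested on simulated data. Named were all members at 1 FPKM in any library, and of each partner list the genes that passed and up to 3 of the smallest adjusted p. Other genes given for their level or role (such as Ctnnb1, Snai1, Smchd1 and the markers) were chosen after values were seen. Alternatives were other pseudocounts, filters and scalings, the highest entry of a symbol alone, the block, and leaving out libraries or clone 2. Python 3.11.15 with pandas 2.3.3, scipy 1.17.1 and matplotlib 3.10.9 was used. The members and lists were chosen with earlier results of these data known.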

Additional observations from a re-analysis of the deposited data

Results flagged for a closer look

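In 15 of 80 sets of 4 libraries (40 members, 2 arms), 1 library stood far from the other 3 of its arm, by more than Dixon's 95% critical value. Chance flags about 1 in 20 sets that were not selected, but these members were chosen for reaching 1 FPKM in at least 1 library. That choice favours genes with a single high library. Pcdhga9, Pcdhga11 and Pcdhgb7 entered through the flagged library alone, and Pcdhga3 and Pcdhga4 through clone 12 alone. Isoforms of 1 array are also not independent, so the count cannot be set against that rate. Of the 15 sets, 8 were high values of clone 12. Pcdhga3 was at 2.82 FPKM in Luc 12 and 2.32 in cFos 12, and Pcdhga4 at 3.22 and 2.97. Pcdhga7 reached 4.96 in cFos 12 and Pcdhb15 1.99. The cadherin Cdh3 was at 11.1 in Luc 12, and Pcdh19 at 4.10 in cFos 12, against 1.55 to 1.79 in the other cFos libraries. The libraries of clone 2 gave 4. Pcdhga9 was at 2.72 in Luc 2, Pcdhga11 at 8.49 and Pcdhgb7 at 2.49 in cFos 2, and Pcdhb16 was low there at 0.588. The others were Cdh18 at 0.324 in Luc 4, Pcdhac2 at 0.443 in Luc 8 and Pcdhb22 at 1.23 in cFos 8.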

How the results depend on the processing

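Pcdhac2 passed in every fit that tested it and Cdh13 in all but those without cFos 2 (adjusted p = 0.0560) or clone 2 (0.114). With the clone as a block, 503 genes rose and 478 fell over all genes, against 326 and 293, with 313 and 267 shared by both fits, and 2 members fell (Pcdh19 and Cdh24). The block changed no other member's call. Without a single library, 150 to 319 genes rose and 85 to 295 fell, and among members 1 to 2 rose and 0 to 2 fell. Leaving out clone 2, an alternative chosen after seeing the data, left 100 rises and 65 falls, and 1 and 0 among members. With no filter 175 genes and 0 members fell, and at 5 FPKM, where Pcdhac2 and Pcdh19 are not tested, 1 member rose and 0 fell. In the clone test 54 genes and 1 member passed, 0 and 0 with no filter (18753 genes), 6 and 0 at 5 FPKM, and 27 and 2 without clone 2. At an unadjusted p under 0.05, 7 of 24 members passed between arms, against 2247 of 11162 genes, and 12 (50% of members) between clones, against 16.5% of all tested genes. Among the 12 were Pcdh7, Pcdhb14 and Pcdhgb4, which the filter let in through the clones where they were high. Gamma isoforms among them share constant exons. Pcdhac2 and Cdh24, among the 7, entered through a single arm. These shares are a description, and nothing particular to the family is read from them. The members' median log2 difference ranged from -0.66 (without Luc 2) to 0.012 (without Luc 8).

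Over all members and alternatives, 372 comparisons kept direction and side of the threshold, 10 lost the call, 2 gained it and 31 changed sign, all of the last in members that did not pass. Without single libraries the log2 difference ranged from -0.32 to 0.68 for Pcdh7, from -0.85 to 0.026 for Pcdhb14, from -0.15 to 0.19 for Pcdhb18, from -0.20 to 0.19 for Pcdhb22, from -0.57 to 0.47 for Pcdhga1, from -0.73 to 0.40 for Pcdhga6, from -0.29 to 0.30 for Pcdhgb2, from -0.73 to 0.80 for Pcdhgb4 and from -0.94 to 0.22 for Pcdhgb6. Without clone 2 it was -0.11 for Pcdh7, -0.0090 for Pcdhb18 and -0.52 for Pcdhgb4. Pcdhga6 was at 0.012 with a pseudocount of 0.1 and Pcdhgb4 at -0.032 with 1. The cause was not tested. For partner genes, 247 kept both, 19 lost the call and 4 gained it. Single isoforms near 1 FPKM rest on a modelled split of shared reads.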
